A study of Mus musculus with 6 samples.

Results

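The genes examined here were the 6 heavy chains of skeletal muscle myosin (Myh1, Myh2, Myh3, Myh4, Myh7 and Myh8) and 4 genes of myoblast fusion (Mymk, Mymx, Myof and Jam3). They were taken by symbol from the gene tables, in which all 10 were found among 54532 genes, and 8 of them had enough reads to be among the 14679 genes tested. Bulk RNA-seq was done on primary myoblasts, the muscle progenitor cells that grow out of digested hind-limb muscle of mice aged 3 weeks, with 3 libraries from WT cells and 3 labelled eIF5A-KO, where eIF5A is a translation factor. Both groups were grown for 2 days in DMEM with 10% fetal bovine serum and 10 ug/ml FGF, a condition labelled as proliferation, and no medium for differentiation is named. The knockout mice carried Pax7-CreERT2 and floxed eIF5A alleles and received tamoxifen. The control genotype is given in the paper in more than one way, as Pax7-CreERT2 mice and as floxed mice without Cre, while the labels give only WT. Cre driven by Pax7 acts in satellite cells alone, and no sort of the cultured cells is described, so that other cells of the muscle could be present in both groups. Nothing in the labels says that the replicates came from separate animals, and p-values then measure only the spread between these libraries.

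Myosin heavy chains are the motor proteins of the thick filament, and each is encoded by a gene of its own. Muscle of the embryo and the newborn uses Myh3 (embryonic) and Myh8 (perinatal), which return in regenerating fibres. Adult fast fibres use Myh2 (type IIa), Myh1 (type IIx) or Myh4 (type IIb), and slow fibres and the heart ventricle use Myh7. Proliferating myoblasts make little of any of them, and the genes come on when myoblasts leave the cell cycle, express myogenin and fuse into myotubes. Fusion itself requires the membrane protein myomaker (Mymk) and the micropeptide myomixer (Mymx), which are made in differentiating muscle cells. Myoferlin (Myof) is a membrane protein of the ferlin family that takes part in membrane fusion and repair, and Jam3 is a junctional adhesion molecule found on many cell types besides muscle.

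The promoters of Myh3, Myh1, Myh4 and Myh2 are shown because these genes lie in 1 cluster on chromosome 11 and differed in how alike their levels were over the libraries. Over the 6 libraries the log2 CPM of Myh3 and Myh1 correlated at r = 0.961 and that of Myh2 and Myh4 at -0.08, given as a description. The sequences are those of RefSeq for GRCm38.p6, plus strand, and end just before the start site or, for Myh1, before the first base that GENCODE annotates as exon. Capitals mark matches to an E box (CANNTG, the kind of site that myogenic bHLH factors bind) and to the MEF2 motif, searched on both strands. They cover chr11:67078050-67078299 for Myh3, chr11:67199852-67200051 for Myh1, chr11:67237562-67237811 for Myh4 and chr11:67170777-67171026 for Myh2.
Myh3: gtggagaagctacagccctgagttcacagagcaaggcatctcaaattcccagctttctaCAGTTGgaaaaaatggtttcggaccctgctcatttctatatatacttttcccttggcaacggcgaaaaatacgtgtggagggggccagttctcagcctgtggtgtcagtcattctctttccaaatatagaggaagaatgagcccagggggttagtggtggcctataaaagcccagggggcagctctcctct
Myh1: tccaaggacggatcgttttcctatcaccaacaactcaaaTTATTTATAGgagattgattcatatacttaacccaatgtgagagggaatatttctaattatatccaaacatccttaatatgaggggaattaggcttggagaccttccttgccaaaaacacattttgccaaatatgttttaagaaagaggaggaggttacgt
Myh4: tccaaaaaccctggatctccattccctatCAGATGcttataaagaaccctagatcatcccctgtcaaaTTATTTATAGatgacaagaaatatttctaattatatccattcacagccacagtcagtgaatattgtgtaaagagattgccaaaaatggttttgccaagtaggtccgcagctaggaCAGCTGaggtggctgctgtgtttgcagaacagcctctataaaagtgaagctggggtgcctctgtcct
Myh2: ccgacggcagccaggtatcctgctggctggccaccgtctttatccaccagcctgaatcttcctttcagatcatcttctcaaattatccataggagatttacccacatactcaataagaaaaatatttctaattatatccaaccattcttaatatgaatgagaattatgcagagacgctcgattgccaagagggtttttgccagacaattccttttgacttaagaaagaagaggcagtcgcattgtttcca
In the 250 bases before the RefSeq start site, Myh3 held 1 E box, which began at base -191, and no MEF2 match. Myh1 held no E box and 1 MEF2 match, at base -211. Myh4 held the same 10 letters of the MEF2 match at base -182 and 2 E boxes, of which the one at base -67 had the form CAGCTG. Myh8, in the same cluster, held those 10 letters as well, at base -99. Myh2 had none of these motifs in the window. Of 32851 mouse promoters of this length, 66.2% held an E box, 13.0% the form CAGCTG and 2.92% a MEF2 match, so that an E box is common in such windows and a MEF2 match is not. The start site of the annotation that goes with the counts lay 50 bases upstream of the RefSeq start for Myh1 and 217 bases downstream for Myh4. These matches describe the sequence and were not tested as sites.

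Per unit of gene length, the fusion genes shared with other cells were the most abundant of the set, and Myh2, Myh7 and Myh8 the least. The authors' FPKM, which divides the fragments of a gene by its length and by the size of the library, averaged 15.6 ± 2.01 for Myof and 9.04 ± 1.38 for Jam3 (SD over n = 6 libraries of both groups). These levels lay apart from each other and from the other 8 genes in every library. Mymk followed with 1.71 ± 1.95 FPKM, Myh4 with 1.58 ± 1.24 and Myh1 with 0.81 ± 0.502. Mymx averaged 0.645 ± 0.88 FPKM, Myh3 0.299 ± 0.391, Myh2 0.131 ± 0.0491, Myh7 0.0906 ± 0.045 and Myh8 0.0257 ± 0.0303. These means pool both groups, and the order turned between them. In WT, Mymk (3.01 FPKM) was above Myh4 (2.16) and Mymx (1.19) above Myh1 (1.13), whereas under the knockout label Mymk (0.411) was below Myh4 (1.00) and Mymx (0.0967) below Myh1 (0.494). From Mymk downwards the ranges of neighbours overlapped. Mymk was above Myh4 in 4 of 6 libraries, Myh4 above Myh1 in 5 and Mymx above Myh3 in 4. Below Jam3, Myh7 and Myh8 were the one pair of neighbours that kept their order in 6 of 6 libraries.

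**Figure D1:**
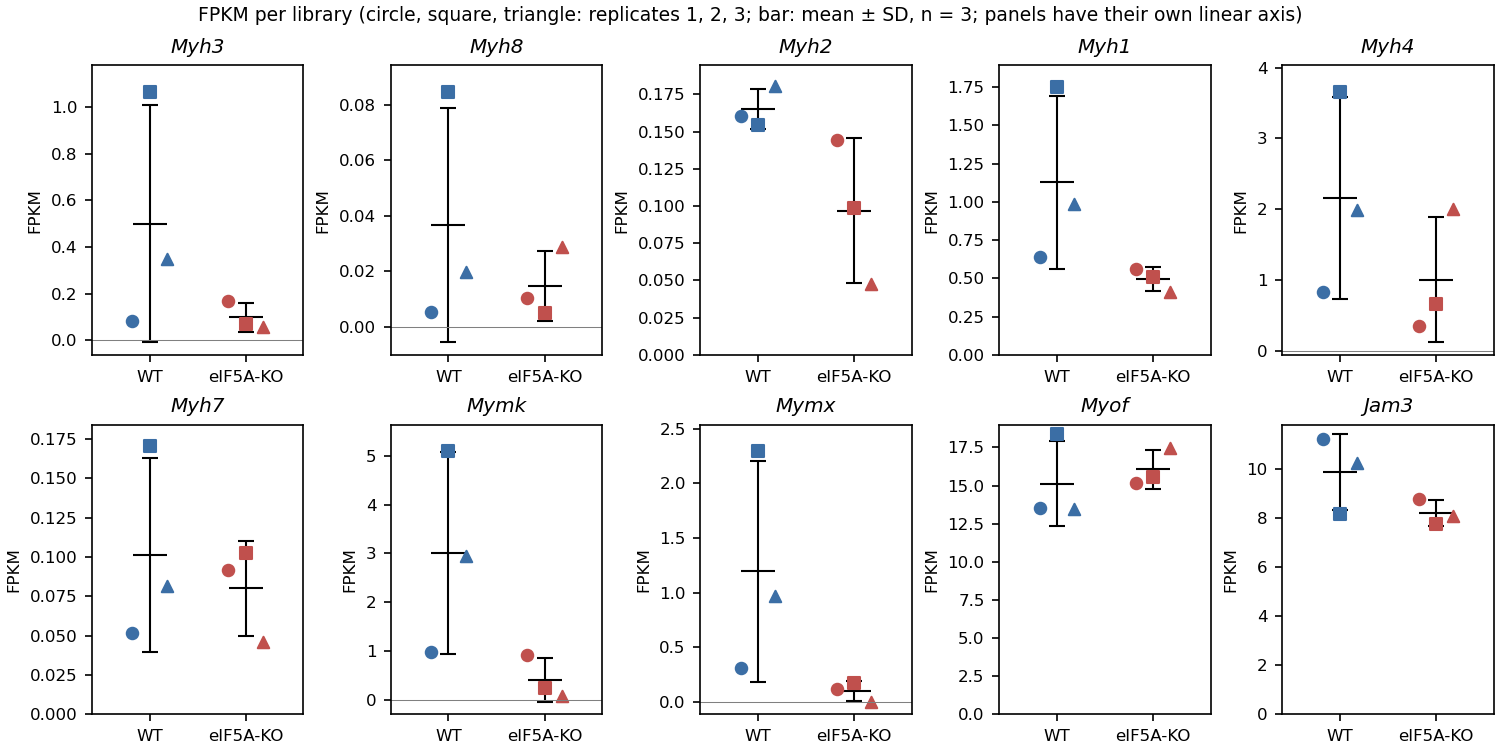
FPKM of the 10 genes in each library (vertical axis, linear, own scale in each panel) for WT and the libraries labelled eIF5A-KO. Symbols mark replicates 1 to 3, and bars the mean ± SD of n = 3. WT replicate 2 (blue square) is the highest of the 6 libraries in 8 of the 10 panels, and Myof and Jam3 show a far narrower spread than Mymk, Mymx and Myh3.

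Total counts ranged from 16281216 to 17734551 per library, so that 1 count equalled 0.053 to 0.0646 CPM (counts scaled to the size of the library with TMM factors). Several of the 10 genes rested on few reads, and their values carry a large counting error. Mitochondrial transcripts took 5.75% of counts in WT replicate 1 and 2.11% to 3.50% in the others. Eif5a itself, the gene targeted in the mice, had overlapping levels in the groups. It had 1603, 986 and 1238 CPM in WT replicates 1 to 3 and 1364, 1459 and 1059 CPM in replicates 1 to 3 labelled eIF5A-KO. The log2 ratio was 0.02 (adjusted p = 0.993 from edgeR) and changed sign with the library left out. Groups are for this reason named by their labels throughout. In bulk RNA, fewer cells of a type and less RNA per cell cannot be told apart.

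The comparison of libraries labelled eIF5A-KO with WT asked whether the transcripts of differentiated muscle moved with the label. The fusogen genes Mymk and Mymx and the myosins Myh3, Myh1 and Myh4 had mean levels in the libraries labelled eIF5A-KO between 0.0808 (Mymx) and 0.462 (Myh4) of the WT mean, while the means of Myof and Jam3 were 1.06 and 0.827 of WT. Those of Myh8, Myh2 and Myh7 were 0.399, 0.585 and 0.786 of WT, and Myh8 and Myh7 turned above WT without WT replicate 2. In the filtered edgeR fit, none of the 8 tested members passed an adjusted p under 0.05, a threshold that 3 of 14679 genes (0.0204%) passed. In DESeq2 Mymk passed it, and in edgeR with no filter 5 members did, with the shares of all genes given below. At an unadjusted p under 0.05, 3 members (Myh3, Myh1 and Mymk) were lower, against a background of 4.02% of tested genes. These 3 also passed the paper's own criterion, in which the fold exceeds 2 at that same p limit, met in this direction by 1.32% of genes. The criterion was applied here to the edgeR fit, while the paper's methods name DEGSeq2. The log2 fold change was below 0 for 7 of the 8 tested members, against 51.7% of tested genes. Its median was -0.94 over the 8 and -0.01 over all tested genes. The groups did not overlap, with lower values under the knockout label, for Myh2, Myh1 and Mymk among the tested members, against 6.83% of tested genes, and for Mymx, which was not tested. These counts describe the set and are no test of it. Myh1, Myh4, Myof and Jam3 had at least 10 counts in every library, and the other 4 tested genes did not.

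**Figure D2:**
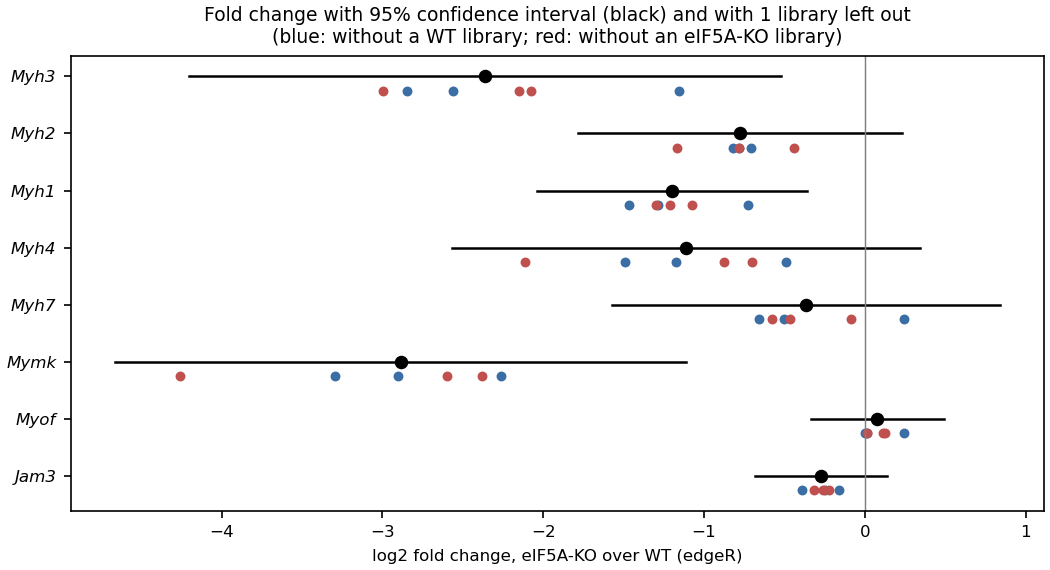
Log2 fold change of the 8 tested genes, eIF5A-KO over WT, from edgeR (horizontal axis), with its 95% confidence interval in black and the estimate with 1 library left out as coloured points below it. Mymk (-2.89), Myh3 (-2.36) and Myh1 (-1.20) have intervals below 0, and the point of Myh3 nearest to 0 (-1.15) is the fit without WT replicate 2.

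Among the developmental myosins, Myh3 (ENSMUSG00000020908, chromosome 11, 67078300 to 67102291 on GRCm38, plus strand, 41 exon blocks) had 0.517, 6.52 and 2.13 CPM in WT replicates 1 to 3. In replicates 1 to 3 labelled eIF5A-KO it had 1.04, 0.414 and 0.340 CPM. WT replicate 2 was far above every other library, and WT replicate 1 fell within the range of the libraries labelled eIF5A-KO, so that the groups overlapped. The log2 fold change was -2.36 (SE 0.818, 95% confidence interval -4.20 to -0.52), with an unadjusted p of 0.0173 and an adjusted p of 0.56 from edgeR. Without WT replicate 2 it was -1.15, with an unadjusted p of 0.126. The unadjusted p was under 0.05 in 9 of the 15 alternative fits that kept Myh3. The counts behind these levels were 8, 123 and 36 in WT and 17, 7 and 6 under the knockout label. Within WT the highest level was 12.6 times the lowest, and the mean under the knockout label was 0.196 of the WT mean.
Myh8 (ENSMUSG00000055775, chromosome 11, 67277124 to 67308634, plus strand) was close to the limit of detection. It had 1, 19 and 4 counts in WT and 2, 1 and 6 under the knockout label, too few to be tested. WT replicate 2 again held most of the reads. The summed counts gave a ratio of 0.378 (exact binomial 95% interval 0.155 to 0.842, counting error only), and without WT replicate 2 the ratio of means turned to a log2 value of 0.21 in the other direction.

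The 3 adult fast myosins lie side by side on the plus strand of chromosome 11, and the libraries ordered them differently. Myh2 (ENSMUSG00000033196, 67171027 to 67197517) had 1.16, 1.11 and 1.30 CPM in WT and 1.04, 0.711 and 0.340 CPM under the knockout label. WT was narrow, and the lowest WT library lay just above the highest one labelled eIF5A-KO. Its log2 fold change was -0.78 (SE 0.449, 95% confidence interval -1.78 to 0.23, adjusted p = 0.835 from edgeR), and the counts were 6 to 22 per library.
Myh1 (ENSMUSG00000056328, 67200052 to 67224575) had 4.14, 11.2 and 6.32 CPM in WT. It had 3.61, 3.26 and 2.61 CPM under the knockout label, so that each of the 3 lay below each WT library. The log2 fold change was -1.20 (SE 0.373, 95% confidence interval -2.04 to -0.36), with an unadjusted p of 0.0101 and an adjusted p of 0.503 from edgeR. Its unadjusted p was under 0.05 in all 16 alternative fits, and without WT replicate 2 the log2 fold change was -0.73.
Myh4 (ENSMUSG00000057003, 67238029 to 67260446) was the most abundant of the myosins in 5 of 6 libraries. It had 5.04, 22.3 and 12.1 CPM in WT and 2.08, 3.97 and 12.1 CPM under the knockout label. Replicate 3 labelled eIF5A-KO matched WT replicate 3, while the other 2 of its group lay below every WT library. The log2 fold change was -1.11 (SE 0.647, 95% confidence interval -2.57 to 0.34, unadjusted p = 0.118, adjusted p = 0.836 from edgeR). A single library of either group moved it widely, to -2.12 (unadjusted p = 0.00978) without replicate 3 labelled eIF5A-KO and to -0.49 (unadjusted p = 0.446) without WT replicate 2. Without WT replicate 1 its unadjusted p was 0.0189.

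The slow myosin Myh7 (ENSMUSG00000053093, chromosome 14, 54970684 to 54994626, minus strand) had 7, 28 and 12 counts in WT and 13, 15 and 7 under the knockout label. The groups overlapped almost fully. Its log2 fold change of -0.37 (95% confidence interval -1.57 to 0.84, adjusted p = 0.952 from edgeR) covers levels from 0.336 to 1.79 of WT, so that no difference was detectable at this depth.

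Summed over the 6 genes, skeletal myosin heavy chain reached 1.77, 6.89 and 3.60 FPKM in WT and 1.32, 1.44 and 2.59 FPKM under the knockout label. Replicate 3 labelled eIF5A-KO exceeded WT replicate 1. The mean was 4.09 ± 2.60 FPKM in WT and 1.79 ± 0.703 under the knockout label (SD, n = 3 each), a ratio of 0.437 that became 0.665 without WT replicate 2. All 6 genes together took 0.000844% to 0.00464% of the counts of a library. Within the sum, Myh4 made up 46.7%, 53.2% and 55.1% in WT, a narrow range. Under the knockout label it made up 25.9%, 45.5% and 77.4%. The means, 51.7% ± 4.43 and 49.6% ± 26.0 (SD, n = 3 each), lay close together, and the spread was wider in the libraries labelled eIF5A-KO. Myh1 made up 36.3%, 25.4% and 27.4% in WT and 42.6%, 35.4% and 15.8% under the knockout label. In replicate 1 labelled eIF5A-KO, Myh1 was the leading myosin, and in replicate 3 Myh4 was, with Myh3 at 2.16%. Myh3 held 12.9% and 4.73% in replicates 1 and 2 of that group and 4.75% to 15.5% in WT. The slow Myh7 held 1.77% to 7.12% of the sum in any library.

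**Figure D3:**
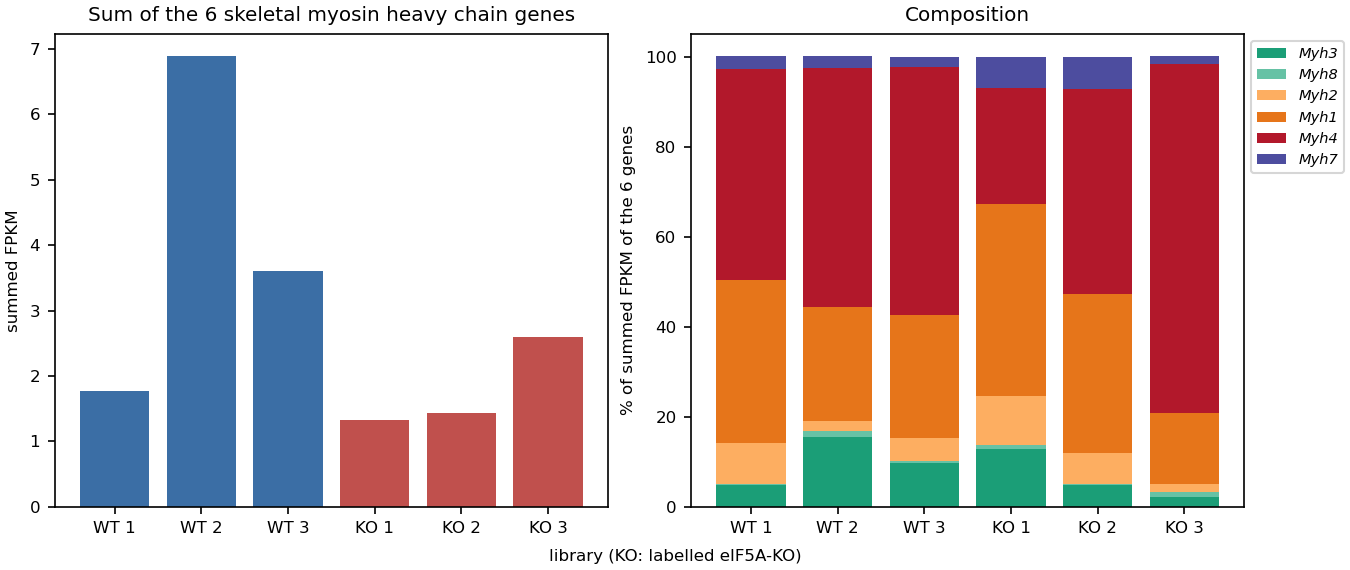
Left, the summed FPKM of the 6 skeletal myosin heavy chain genes per library (bars, linear axis from 0). Right, the percentage of that sum held by each gene in each library, where the share of Myh4 runs from 25.9% to 77.4% in the libraries labelled eIF5A-KO and from 46.7% to 55.1% in WT.

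Of the fusion genes, Mymk and the untested Mymx did not overlap between the groups, with lower values under the knockout label as for 6.83% of tested genes, and Myof and Jam3 overlapped.
Mymk (ENSMUSG00000009214, chromosome 2, 27061636 to 27072179, minus strand, 6 exon blocks) had 1.49, 7.80 and 4.49 CPM in WT. It had 1.41, 0.355 and 0.113 CPM under the knockout label, the last from 2 counts. The groups did not overlap, although WT replicate 1 and replicate 1 labelled eIF5A-KO had 23 counts each. The log2 fold change was -2.89 (SE 0.789, 95% confidence interval -4.66 to -1.11), which was the largest of the 8 tested members, with an unadjusted p of 0.00493 and an adjusted p of 0.423 from edgeR. DESeq2 gave -2.88 with an adjusted p of 0.0136, and Mymk was the only member it called. At an adjusted p under 0.05, 0.475% of the genes in DESeq2 were lower. With WT replicate 2 left out it was -2.27, and with replicate 1 labelled eIF5A-KO left out it was -4.26. Its unadjusted p was under 0.05 in each of the 15 alternative fits that kept it, and the fit with at least 10 counts in every library dropped it. Under the knockout label only replicate 1 had at least 10 counts. Mymk thus passed the default filter through the WT libraries, in which it was high, and that replicate.
Mymx (ENSMUSG00000079471, chromosome 17, 45600971 to 45602102, minus strand, 3 exon blocks) had 5, 45 and 17 counts in WT and 2, 3 and 0 under the knockout label. Every library labelled eIF5A-KO lay below every WT library. A count of 0 in replicate 3 allows up to 0.170 CPM (3 counts). Its counts did not pass the expression filter, so that it was not tested, and the summed counts of 67 and 5 gave a ratio of 0.0752 (exact binomial 95% interval 0.0237 to 0.184, counting error only). With no filter on low counts, Mymx, Mymk, Myh3, Myh1 and Myh4 each had an adjusted p under 0.05 and lower levels, as 0.683% of genes did. In that fit the spread of every gene was taken from the common trend and its own spread had no weight, unlike the fit reported here.
Myof (ENSMUSG00000048612, chromosome 19, 37899036 to 38043577, minus strand, 54 exon blocks) had 173, 234 and 171 CPM in WT and 193, 197 and 221 CPM under the knockout label. The values interleaved. The log2 estimate of 0.08, with a 95% confidence interval from -0.34 to 0.49 (adjusted p = 0.975 from edgeR), bounds its level at 0.792 to 1.41 of WT.
Jam3 (ENSMUSG00000031990, chromosome 9, 27097384 to 27155421, minus strand, 11 exon blocks) had 36.5, 26.5 and 33.0 CPM in WT and 28.4, 24.9 and 26.0 CPM under the knockout label. WT replicate 2, the highest library for most of the set, was the lowest WT library here. Its log2 fold change of -0.27 lay in a 95% confidence interval from -0.68 to 0.14 (adjusted p = 0.875 from edgeR), which bounds the level at 0.623 to 1.10 of WT.

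The libraries of a group differed widely for most of these genes. WT replicate 2 held the highest level of 8 of the 10 genes, all but Myh2 and Jam3, and replicate 3 labelled eIF5A-KO the lowest level of 6. The highest WT level was 15.6 times the lowest for Myh8, 7.39 times for Mymx, 5.24 times for Mymk, 4.42 times for Myh4 and 2.72 times for Myh1. It was 1.38 times for Jam3, 1.37 times for Myof and 1.17 times for Myh2. Myogenin (Myog), the transcription factor that opens terminal differentiation, followed the order of Mymk in both groups, with 14.4, 76.3 and 32.2 CPM in WT and 8.93, 5.09 and 2.10 CPM under the knockout label. Its log2 fold change was -2.94 (unadjusted p = 0.00119, adjusted p = 0.362 from edgeR), and -2.12 without WT replicate 2. Replicate 3 labelled eIF5A-KO had the lowest Myog, Mymk, Mymx and Myh3 of the 6 libraries and, beside them, the second-highest Myh4.

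The genes whose levels most resembled those of Mymk, by Pearson correlation of log2 CPM over the 6 libraries and given as a description with no test, were Ank1 (r = 0.997), Chrna1 (0.997), Col26a1 (0.986), Chrng (0.985) and Myog (0.985). Chrna1 and Chrng encode the alpha and gamma subunits of the muscle acetylcholine receptor. Chrna1 had 85.3, 224 and 148 CPM in WT and 74.9, 43.8 and 29.9 CPM under the knockout label, in the order of Mymk in both groups. Without WT replicate 2 the 5 correlations were 0.977 to 0.998. For Myh3 the nearest genes were Zkscan7 (0.993), Cd82 (0.992), Ppfia4 (0.991), Ttn (0.987) and Rtl3 (0.987), and 0.963 to 0.985 without WT replicate 2. Ttn, the gene of the giant sarcomere protein titin, had 3.75, 23.9 and 9.39 CPM in WT and 5.08, 3.67 and 3.57 CPM under the knockout label. The points share the libraries and their depth, and the 2 groups, so that a gene that differs between groups correlates through that difference.

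The partners of myosin in the thick filament showed a mixed picture. Of 14 tested, 10 had a log2 fold change below 0, with a median of -0.55, and 2 were lower at an unadjusted p under 0.05, against 51.7% of all tested genes below 0 and 4.02% lower at that p. DESeq2, which gave a p for all 16 genes of the list, had 5 lower at that limit, adding Myl4, Mybph and Myom3. In DESeq2 2.45% of genes were lower at that limit, and Myom3 is not among the 14. Smyd1, a methyltransferase needed to assemble myosin, had a log2 fold change of -1.39 (unadjusted p = 0.00419), and Mybpc1, slow myosin-binding protein C, one of -1.16 (unadjusted p = 0.0110). Mylk2, the kinase of skeletal myosin light chain, was higher, at 1.15 (unadjusted p = 0.0177), and 2.74% of all tested genes were higher at that limit. None of the 14 had an adjusted p under 0.05 in the filtered edgeR fit, and Mylk2 had one of 0.000152 with no filter. Mybpc2, fast myosin-binding protein C, had 3.23, 14.6 and 6.50 CPM in WT and 1.10, 1.48 and 9.07 CPM under the knockout label, and replicate 3 labelled eIF5A-KO stood above the others of its group as it did for Myh4. Mybpc2 was singled out after its values were seen. Of the other myosin heavy chains of class II, 4 of 8 were tested. The smooth muscle Myh11 had 10.47, 10.98 and 10.51 CPM in WT and 29.3, 28.3 and 34.2 CPM under the knockout label, and rose by 1.52 on the log2 scale (adjusted p = 0.0486 from edgeR), the opposite direction to the skeletal genes. The call was lost in 11 of 16 alternatives. Over all 16 the adjusted p ran from 1.71e-09 to 0.315, the log2 fold change from 1.06 to 1.58, and the unadjusted p was under 0.05 in each. The non-muscle chains Myh9 (0.13), Myh10 (-0.12) and Myh14 (-0.29) had log2 fold changes within their spread.

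The other genes of fusion gave no comparable fold changes. Of 28 tested genes of adhesion, actin remodelling and membrane fusion, 0 had an unadjusted p under 0.05 in edgeR, 0 in limma-voom and 1, Cd9, in DESeq2. In edgeR 2.74% of all tested genes were higher and 4.02% lower at that limit, which also holds for the relatives of Myof and Jam3 below. Of the 28, 21 had a log2 fold change above 0, against 48.3% of all tested genes. The median was 0.10. The 4 with the smallest p were the tetraspanin Cd9 (0.41), Jam2 (0.34), annexin Anxa5 (0.42) and the phosphatase Ptpn11 (-0.25), with unadjusted p-values from 0.0529 to 0.155. Of the 5 tested relatives of Myof and Jam3, 0 had an unadjusted p under 0.05 in edgeR, limma-voom or DESeq2, and all 5 had a log2 fold change above 0, among them Jam2, Dysf (0.36), Esam (0.28) and F11r (0.25).

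**Figure D4:**
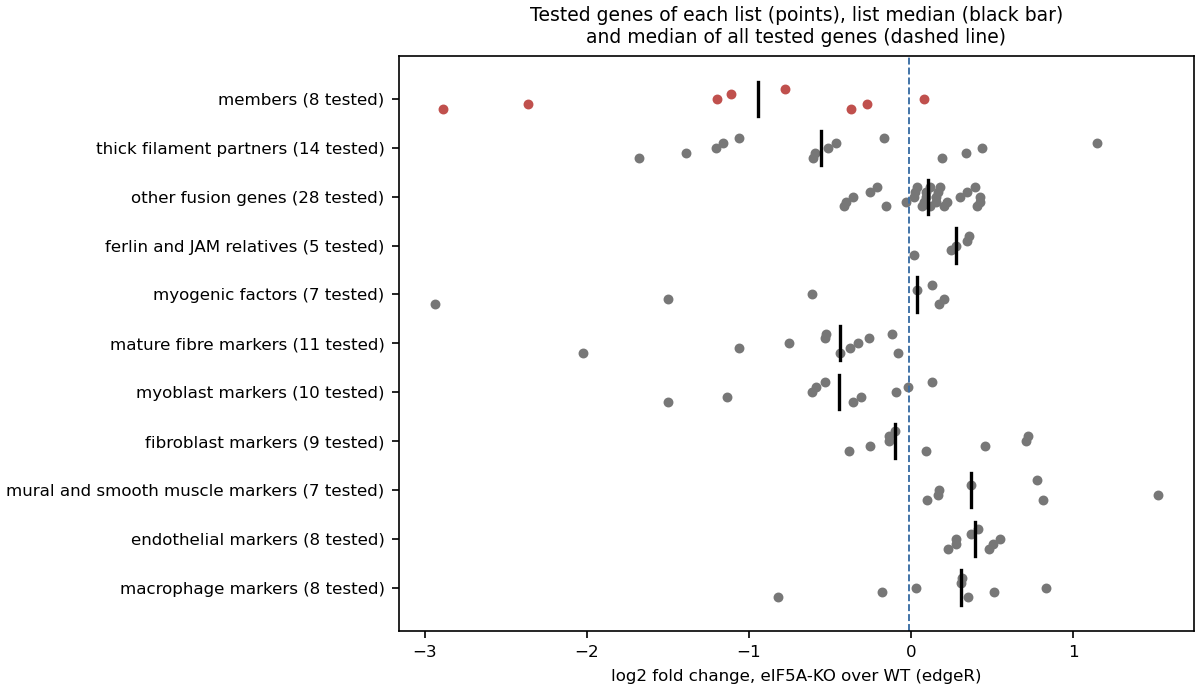
Log2 fold change, eIF5A-KO over WT, of every tested gene of each list (points), with the list median (black bar) and the median of all tested genes (dashed line). The 8 tested members of the set (red) have a median of -0.94, the other fusion genes one of 0.10.

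Markers of the cells that the cultures could hold were read in the same fit. Of 12 markers of mature fibres, 11 were tested and all 11 had a log2 fold change below 0 (median -0.44), with Ryr1 (-2.02), Actn3 (-1.06) and Tnni2 (-0.44) at an unadjusted p under 0.05. Over all tested genes 51.7% were below 0 and 4.02% lower at that p. Without WT replicate 2 the 3 genes were at -0.93, -0.55 and -0.29, with unadjusted p-values of 0.0562, 0.0801 and 0.161. Their summed level was 338 to 626 CPM in WT and 239 to 398 CPM under the knockout label, with Tnnc2 at 0 counts in every library. Of 10 myoblast markers, 9 had a log2 fold change below 0 (median -0.45), with Pax7 (-1.50) and Met (-1.13) at an unadjusted p under 0.05, to be read against the same shares. DESeq2 gave an adjusted p of 0.0498 for Pax7 and 0.00557 for Met, and Pax7 was at -0.84 without WT replicate 2. Their sum was 713 to 1771 CPM in WT, lowest in replicate 1, and 723 to 1235 CPM under the knockout label. Myod1 had 264, 550 and 437 CPM in WT and 350, 273 and 196 CPM under the knockout label. Its log2 fold change was -0.61 (unadjusted p = 0.0688 from edgeR). DESeq2 had Myod1 lower at an unadjusted p under 0.05, and limma-voom did not. The paper reports no difference in Myod mRNA between WT and eIF5A-KO cells. Of the 7 tested myogenic transcription factors, 3 had a log2 fold change below 0, Pax7 and Myog among them at an unadjusted p under 0.05, and the MEF2 genes Mef2a, Mef2c and Mef2d had log2 fold changes of 0.04, 0.17 and 0.20.
Transcripts of other cells were found in both groups, and their counts are to be read against 48.3% of all tested genes above 0 and 2.74% higher at an unadjusted p under 0.05. The 8 endothelial markers summed to 1142 to 2431 CPM in WT and 2018 to 3073 CPM under the knockout label, and all 8 had a log2 fold change above 0 (median 0.39), with Emcn (0.51) at an unadjusted p under 0.05. The 9 fibroblast markers summed to 3808 to 4265 CPM in WT and 3974 to 4933 CPM, with Col1a1 (0.72), Col1a2 (0.71) and Fbln2 (0.46) higher at that limit, while 5 of the 9 had a log2 fold change below 0 (median -0.10). The mural and smooth muscle markers, 7 of 8 tested, summed to 360 to 604 CPM in WT and 664 to 756 CPM, with Myh11, Pdgfrb (0.81) and Cspg4 (0.77) higher. All 7 tested had a log2 fold change above 0 (median 0.37). The 8 macrophage markers summed to 62.4 to 136 CPM in WT and 66.9 to 166 CPM, with Cd68 (0.84) higher, and 6 of the 8 had a log2 fold change above 0 (median 0.31). The part of these cell types in the levels of Myof and Jam3, which other cells also express, and of the muscle genes was not tested.

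The myosin genes are alike in sequence, and reads could be assigned to the wrong one. Of all 100-base windows of the longest transcript, 14.7% in Myh1, 13.9% in Myh7 and 11.2% in Myh2 were also found in a transcript of another gene, mainly Myh2 for Myh1 (7.59%) and Myh6 for Myh7 (11.2%). The share was 6.61% in Myh8, 3.85% in Myh4 and 1.15% in Myh3, and 0% in Mymk, Mymx and Myof. Jam3 shared 7.92% with an antisense gene, Gm48796, which overlaps 1159 of its exonic bases and had 15 to 43 counts per library, and antisense genes overlap Myh1, Myh2 and Myh7 as well. How reads with several matches or on either strand were counted is not given in the sources used here. With windows of 50 bases the shares were 32.1% in Myh1, 28.9% in Myh2, 28.2% in Myh7, 21.4% in Myh8, 18.9% in Myh4, 18.8% in Jam3 and 4.81% in Myh3. The levels of the 5 myosins other than Myh3, and of Jam3, are therefore the less certain ones.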

How the data were processed

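The authors extracted total RNA with TRIzol, built libraries with an NEBNext Ultra kit and mapped reads to mm10 with HISAT (submitters' processing notes). The deposited values are raw counts of reads on each gene, without normalization, and FPKM that the authors computed, beside gene symbols, coordinates and lengths as other columns. The paper's methods name DEGSeq2 for the read coverage of genes, while the handling of reads with several matches and the annotation version are not given in the sources used here. Gene coordinates of the 10 genes equalled those of GENCODE M21 (GRCm38). Libraries labelled eIF5A-KO were compared with WT on the counts in edgeR 4.0.16 (R 4.3.3), with filterByExpr defaults, TMM factors, the quasi-likelihood F test and Benjamini-Hochberg adjustment over 14679 genes. CPM use TMM factors, errors are SD unless an SE is named, and ratios of summed counts carry exact (Clopper-Pearson) intervals that cover counting error only. All tests were two-sided. Levels of different genes were compared only as FPKM, by the authors. Likeness used log2 CPM with a prior count of 2. Alternatives were other scalings and filters, DESeq2 1.42.0, limma 3.58.1 (voom, and log2(FPKM + 1) or log2(FPKM + 0.1)), a replicate block and each library left out. Of these steps, the edgeR fit with and without the replicate block, DESeq2, limma-voom and limma on log2(FPKM + 1) were tested on simulated counts. The genes named were the 10 members, in each other list those with an unadjusted p under 0.05 (or the 4 with the smallest p where none passed), Eif5a, and the 5 most like Myh3 and Mymk. Myod1, Mybpc2, Tnnc2, the MEF2 genes and the non-muscle myosins were added after their values were seen. The members and all lists were chosen with earlier results of these data known. RefSeq promoters matched 7 of the 10 genes, and none was found for Mymk, Mymx and Jam3. Columns of per-sample values left unused numbered 0.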

Additional observations from a re-analysis of the deposited data

How the results depend on the processing

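The genes with an adjusted p under 0.05 numbered 1 higher and 2 lower. They numbered 0 and 0 with DESeq2's size factors, with library size alone, with at least 10 counts in every library, with limma-voom and with limma on log2(FPKM + 1) or log2(FPKM + 0.1), where 992, 966, 907, 961, 980 and 980 genes had an unadjusted p under 0.05. No filter gave 65 and 184, with infinite prior degrees of freedom against 5.35, so that each gene took the spread of the trend. DESeq2 gave 21 and 71. Leaving out single libraries gave 0 to 8 higher and 0 to 48 lower, with 8 and 48 without WT replicate 1, 0 in the other 5 fits, and 585 to 1530 genes at an unadjusted p under 0.05. By the paper's criterion, applied to the edgeR fit, 78 genes were higher and 194 lower. These counts became 180 and 512 with no filter, 40 and 123 with at least 10 counts in every library, 12 and 47 on log2(FPKM + 1) and, for the higher genes, 51 on log2(FPKM + 0.1). With single libraries left out they ranged from 69 to 163 higher and from 188 to 318 lower, the upper ends without WT replicate 1.

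With no filter, calls at an adjusted p under 0.05 appeared for Myh3 (-2.34), Myh1 (-1.18), Myh4 (-1.10), Mymk (-2.87) and Mymx (-3.56, as log2 fold changes), and with DESeq2 for Mymk (-2.88). In 14 of 16 alternatives no member was called. Of the other named genes, calls appeared for Mylk2, Myog, Pax7, Ryr1, Actn3, Met, Pdgfrb and Cd68 with no filter, for Pax7, Met and Pdgfrb with DESeq2, for Myog, Pax7, Ryr1 and Met without WT replicate 1, and for Myog with the replicate block. Myh3, Myh2, Myh1, Myh4, Mymk, Mymx and Jam3 stayed below 0 and Myof above 0 in every alternative that gave a value. Myh8 ranged from -2.26 to 0.21 and Myh7 from -0.66 to 0.24 with single libraries left out, above 0 without WT replicate 2 alone. Eif5a ranged up to 0.23 and was -0.13 without WT replicate 2, -0.01 without replicate 1 and -0.07 without replicate 2 labelled eIF5A-KO. Without WT replicate 2 the members at an unadjusted p under 0.05 were Myh1 and Mymk, and without WT replicate 1 Myh3, Myh1, Myh4, Mymk and Mymx, where Mymx entered the fit only through the WT libraries, in which it was high. At least 10 counts in every library left 4 of the 10 genes tested. The cause of these shifts was not tested unless stated.

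Same-numbered replicates had deviations that correlated at 0.084, -0.160 and 0.105, and not every library correlated best with its own number. With 3 libraries per group these values cannot decide whether the numbers pair the libraries. A replicate block gave 7 higher and 17 lower genes, none of them a member, with Myh4 added to the members at an unadjusted p under 0.05. Depth limits Myh8, Mymx, Myh7 and Myh2, with 0 to 45 counts in each library. It also limits Mymk and Myh3, with 2 to 23 and 6 to 17 counts under the knockout label.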
